A study of Homo sapiens with 8 samples.

Results

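The genes described here are 10 components of the canonical Wnt and beta-catenin pathway, namely APC, CTNNB1, AXIN1, GSK3A, GSK3B, LRP5, LRP6, TCF7L2, DVL1 and DVL2, which were taken by symbol, with all their probes. Of the 10 genes 6 had a named probe in the array data used here, with 7 probes among 14479, and 9535 genes were named in all. The other 4, APC, GSK3A, LRP6 and DVL1, had none and were not analysed here. RNA came from HEK293T cells, an established line of human embryonic kidney origin, transfected with 200 pmol of a duplex of miR-23b or of miR-27a carrying biotin and collected after 24 h. The 4 groups of 2 bead arrays were a streptavidin pull-down, in which RNA held with the labelled miRNA was recovered on beads, and an input for each miRNA, and all 4 groups had thus received a biotinylated duplex. The question was which transcripts were held by each miRNA, and no pull-down with a duplex of another sequence was analysed here. Nothing in the labels states that replicates 1 and 2 were grown separately, and the p-values accordingly reflect the variation among 8 arrays, part or all of which may be technical.

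In the absence of a Wnt ligand, beta-catenin, the product of CTNNB1, is phosphorylated in a cytoplasmic complex built on the scaffold proteins axin and APC by casein kinase and glycogen synthase kinase, and is then ubiquitinated and degraded. Binding of Wnt to a Frizzled receptor and to LRP5 or LRP6 recruits Dishevelled and axin to the membrane, beta-catenin accumulates, and in the nucleus it acts with TCF/LEF proteins such as TCF7L2. MicroRNAs guide Argonaute proteins to transcripts chiefly through pairing of their seed, the bases near the 5′ end, and a pull-down of a labelled miRNA is meant to retain the transcripts so bound.

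The mature sequences of both arms of each miRNA are given because the labels name no arm, and the 3p arms because their seeds are close to each other. They were taken from RefSeq (GRCh38.p14), with the seed, bases 2 to 8 counted from the 5′ end, in capitals. The 3p arm of miR-23b lies at chr9:95085265-95085287 on the plus strand, and that of miR-27a at chr19:13836447-13836467 on the minus strand.
hsa-miR-23b-3p: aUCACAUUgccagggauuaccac
hsa-miR-27a-3p: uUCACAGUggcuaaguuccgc
hsa-miR-23b-5p: uGGGUUCCuggcaugcugauuu
hsa-miR-27a-5p: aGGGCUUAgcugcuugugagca
The seeds of the 3p arms shared 6 of 7 bases and differed by U7G, where miR-23b is named first and miR-27a second. The 5 bases 2 to 6, UCACA, were the same in both. No transcript sequence of the pathway genes was used here, so that these seeds were not set against them.

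Among the measured pathway genes, the transcript of GSK3B, one of the paralogous kinases that phosphorylate beta-catenin, rose in both pull-downs, with a log2 change of 0.75 ± 0.15 (SE) with miR-23b and 0.85 ± 0.15 with miR-27a. TCF7L2, the DNA-binding partner of beta-catenin, rose by 1.17 ± 0.25 with miR-23b. The remaining probes, those of CTNNB1, AXIN1, LRP5 and DVL2, did not pass in either pull-down in the fit without pairing of replicates, and 0 of the 7 probes fell. For the miR-23b pull-down 2 of 7 probes passed (28.6%, against 24.3% of all 14479 probes, with 12.0% higher and 12.2% lower), and for the miR-27a pull-down 1 of 7 (14.3%, against 34.3% of all probes, with 17.1% higher and 17.2% lower), at an adjusted p under 0.05 in limma with Benjamini-Hochberg adjustment over all probes. With the replicate block 2 of 7 probes passed with miR-23b (44.1% of all probes), and 4 of 7 with miR-27a (52.7% of all probes). These shares lay near or below those of all probes, and the genes as a group are therefore described gene by gene. The values are log2 intensities of arrays with nearly equal medians, so that each change is one against the bulk of the probes. The method behind that scale is not given in the sources used here, and the folds below are apparent folds.

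**Figure D1:**
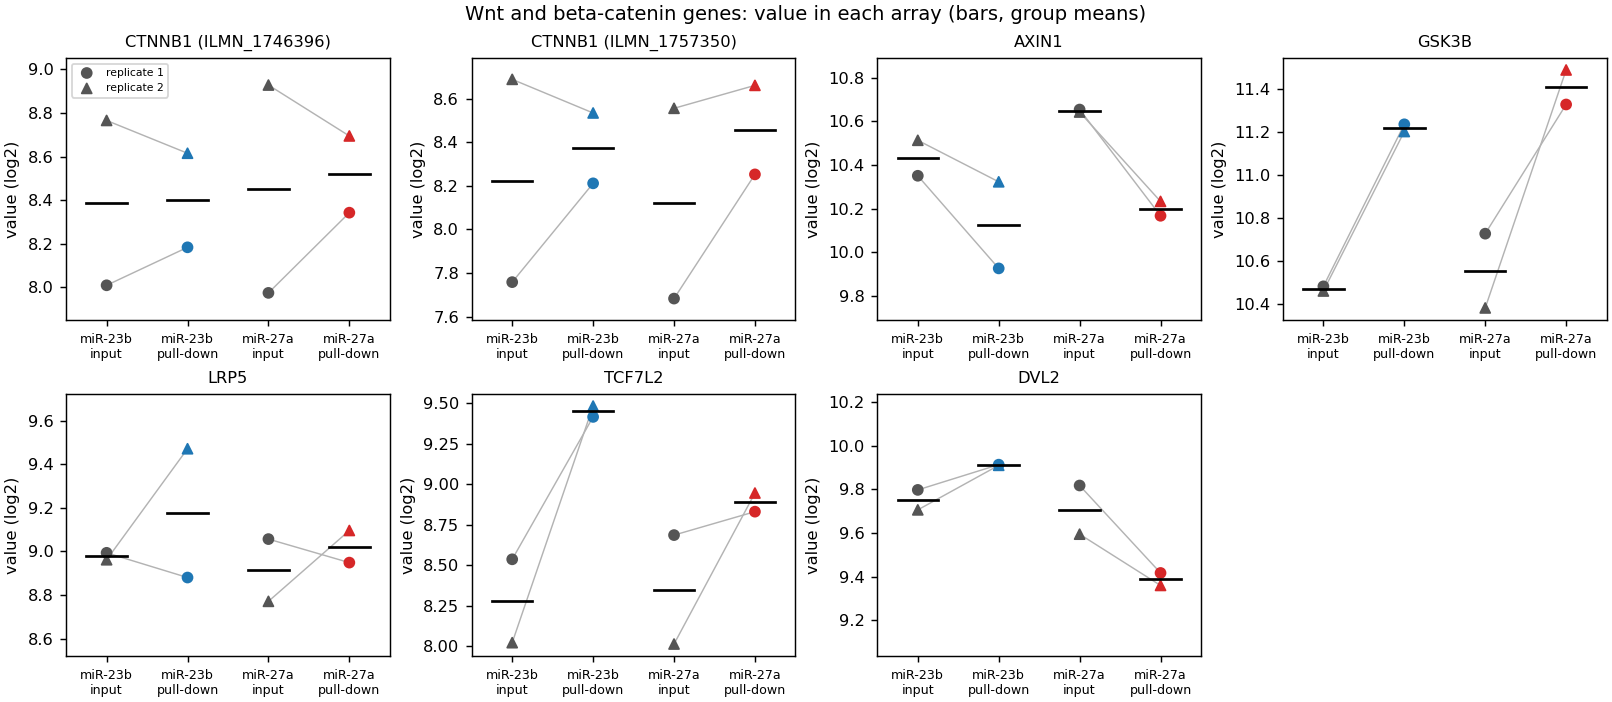
Value of each of the 7 probes in each of the 8 arrays (vertical axis, deposited log2 intensity, with its own range in each panel; horizontal axis, the 4 groups). Circles are replicate 1, triangles replicate 2, grey lines join the pull-down and the input of the same miRNA and replicate number, and bars are group means; the pull-downs of GSK3B lie above their inputs with both miRNAs, whereas in both CTNNB1 panels every replicate 2 lies above the replicate 1 of its group.

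LRP5 encodes a co-receptor that is phosphorylated upon Wnt binding and then holds axin at the membrane. Its values were 8.99 and 8.96 in the inputs of miR-23b and 8.88 and 9.47 in the pull-downs. With miR-27a they were 9.06 and 8.77 in the inputs and 8.95 and 9.10 in the pull-downs. Pull-downs and inputs overlapped with both miRNAs, since replicate 1 of the pull-down was the lower of its pair and replicate 2 the higher in each case. The changes were 0.20 ± 0.21 with miR-23b (adjusted p = 0.52) and 0.11 ± 0.21 with miR-27a (adjusted p = 0.71), with 95% intervals of -0.28 to 0.68 and -0.37 to 0.59.

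DVL2 encodes a Dishevelled protein, which links the activated receptor to the axin complex. The inputs of miR-23b had values of 9.80 and 9.71, and the pull-downs both had 9.91. The inputs of miR-27a had 9.82 and 9.59, and the pull-downs 9.42 and 9.36. The pull-downs thus lay above their inputs with miR-23b and below them with miR-27a, without overlap in either case. Neither change passed, at 0.16 ± 0.13 with miR-23b (adjusted p = 0.42) and -0.32 ± 0.13 with miR-27a (adjusted p = 0.10). With the replicate number as a block the change with miR-27a passed (adjusted p = 0.040).

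AXIN1 encodes the scaffold on which APC, GSK3 and beta-catenin assemble. It was the 1 gene of the 6 whose pull-downs lay below their inputs with both miRNAs. The inputs of miR-23b had values of 10.35 and 10.51 against 9.93 and 10.32 in the pull-downs, and those of miR-27a had 10.65 and 10.64 against 10.17 and 10.23. Groups did not overlap, and the pull-downs of miR-27a lay farther from their inputs than those of miR-23b did. The log2 changes were -0.31 ± 0.16 with miR-23b (adjusted p = 0.20) and -0.45 ± 0.16 with miR-27a (adjusted p = 0.065). The latter passed with the replicate block (adjusted p = 0.016) and on omission of either miR-23b pull-down (adjusted p = 0.039 in both), arrays that enter this comparison through the shared spread alone.

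GSK3B encodes a kinase that phosphorylates beta-catenin and so marks it for degradation. Its inputs had values of 10.48 and 10.46 with miR-23b, and its pull-downs 11.23 and 11.20. With miR-27a the inputs had 10.73 and 10.38 and the pull-downs 11.33 and 11.49. All 4 pull-downs lay above all 4 inputs, and the replicates were closest together with miR-23b. The rises of 0.75 ± 0.15 and 0.85 ± 0.15 correspond to apparent folds of 1.68 and 1.81 (adjusted p = 0.013 and 0.0051 in limma). The call with miR-27a was kept without any of the 8 arrays, with changes of 0.68 to 1.03, and that with miR-23b was lost without input replicate 2 of miR-23b (0.74, adjusted p = 0.066).

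CTNNB1, which encodes beta-catenin, the effector of the pathway and a component of cell junctions, was the 1 gene with more than 1 probe. With the brighter probe, ILMN_1746396, the miR-23b arrays had values of 8.01 and 8.77 in the inputs and 8.18 and 8.62 in the pull-downs, and the miR-27a arrays 7.98 and 8.93 in the inputs and 8.34 and 8.69 in the pull-downs. With the probe ILMN_1757350 the inputs of miR-23b had 7.76 and 8.69 and the pull-downs 8.21 and 8.53, whereas the inputs of miR-27a had 7.68 and 8.56 and the pull-downs 8.25 and 8.66. In each group and with both probes replicate 2 was higher than replicate 1, and the spread between replicates was wider in the inputs (SD 0.53 to 0.67, n = 2) than in the pull-downs (SD 0.23 to 0.30, n = 2). Pull-down minus input was above 0 in replicate 1 and below 0 in replicate 2 with ILMN_1746396 (0.17 and -0.15 with miR-23b, 0.37 and -0.23 with miR-27a). With ILMN_1757350 it was 0.45 and -0.15 with miR-23b and 0.57 and 0.11 with miR-27a. The fitted changes were 0.01 ± 0.36 and 0.15 ± 0.37 with miR-23b (adjusted p = 0.98 and 0.80) and 0.07 ± 0.36 and 0.34 ± 0.37 with miR-27a (adjusted p = 0.90 and 0.51). These intervals, -0.81 to 0.99 over both probes with miR-23b and -0.76 to 1.18 with miR-27a, include the changes found for GSK3B. A rise of that size was thus not excluded for CTNNB1 in the fit without pairing of replicates. The errors of that fit include the step between replicates, and no interval from the fit with the replicate block is given here.

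TCF7L2 encodes a TCF/LEF transcription factor through which beta-catenin activates its target genes. Its inputs had values of 8.54 and 8.02 with miR-23b, and its pull-downs 9.42 and 9.48. With miR-27a the inputs had 8.69 and 8.01 and the pull-downs 8.83 and 8.95. Replicate 2 was the lower input with both miRNAs, the pull-downs were close to each other, and no pull-down overlapped its inputs. The rise of 1.17 ± 0.25 with miR-23b, an apparent 2.25-fold, was the largest among the 7 probes in either comparison (adjusted p = 0.014 in limma). Omitting the second pull-down (1.14, adjusted p = 0.055) or the second input (0.91, adjusted p = 0.080) of miR-23b ended this call. With miR-27a the change was 0.54 ± 0.25 (adjusted p = 0.13). That change passed with the replicate block (adjusted p = 0.041) and without input replicate 1 of miR-27a (0.88, adjusted p = 0.042).

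**Figure D2:**
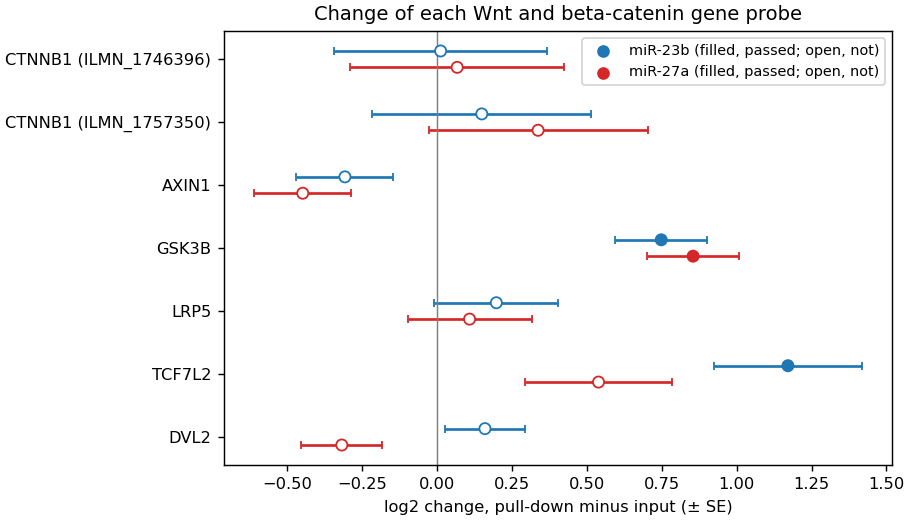
Log2 change, pull-down minus input, of each of the 7 probes (horizontal axis; points are fitted changes and bars their moderated SE) with miR-23b in blue and miR-27a in red. Filled points passed at an adjusted p under 0.05 and open points did not; GSK3B is filled with both miRNAs, TCF7L2 with miR-23b, and AXIN1 lies below 0 with both.

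Whether enrichment differed between the miRNAs was tested as the difference of the changes, miR-23b minus miR-27a. Of the 7 probes 0 passed in limma (0.477% of all probes passed) and 0 with the replicate block (4.24% of all). That of DVL2 was the 1 with an unadjusted p under 0.05, as had 1358 of all 14479 probes. For DVL2 the difference was 0.48 ± 0.19 (95% interval 0.04 to 0.92, adjusted p = 0.49). For TCF7L2 it was 0.63 ± 0.35 (-0.17 to 1.44, adjusted p = 0.68), so that the call with miR-23b and its absence with miR-27a do not show a difference between them. For GSK3B the difference was -0.11 ± 0.22 (-0.61 to 0.39), for AXIN1 0.14 ± 0.23 (-0.39 to 0.67) and for LRP5 0.09 ± 0.29 (-0.59 to 0.76). The CTNNB1 probes had intervals of -1.22 to 1.11 and -1.38 to 1.01. None of these intervals shows that the miRNAs acted alike on a gene. The inputs were compared as well. In limma 0 of 7 probes differed between the inputs of miR-27a and miR-23b at an adjusted or unadjusted p under 0.05 (0.0% of all probes passed, and 76 of 14479 had an unadjusted p under 0.05), with differences of -0.10 to 0.22.

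The profile of CTNNB1 over the 8 arrays was compared with those of the other 9534 named genes, each represented by its brightest probe with its own mean subtracted. The smallest root mean square differences on the log2 scale were those of ZNF326 (0.08), a zinc finger protein gene, AHCY (0.08), which encodes the hydrolase of S-adenosylhomocysteine, and PRMT5 (0.11), an arginine methyltransferase gene. Their changes with miR-23b and miR-27a were 0.06 and 0.22 for ZNF326, -0.16 and 0.00 for AHCY and 0.03 and -0.02 for PRMT5. The CTNNB1 probe they were matched to had changes of 0.01 and 0.07. The search thus selects for small changes and for a like step between replicates, and neither is a separate result.

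A wider list of 144 other genes of Wnt signalling, ordered by role, had 88 genes in the table, each taken from its brightest probe on average. In the miR-23b pull-down 17 rose and 1 fell, so that 20.5% of the list passed in either direction against 24.3% of all probes, of which 12.0% were higher and 12.2% lower, and the median change was 0.19 against -0.02 over all probes. In the miR-27a pull-down 22 rose and 2 fell, so that 27.3% of the list passed in either direction against 34.3% of all probes, of which 17.1% were higher and 17.2% lower, with a median of 0.09 against -0.07. With the replicate block 28 rose and 9 fell with miR-23b (22.1% and 22.1% of all probes, 44.1% in either direction) and 29 rose and 13 fell with miR-27a (24.2% and 28.5% of all probes, 52.7% in either direction). On omission of any 1 array of a comparison fewer of these genes passed in it, and so did fewer of all probes. With only the 4 arrays of the comparison the count with miR-23b was 7 (2117 of all 14479 probes, against 3513 in the main fit). In that fit 11 calls ended, those of FZD4, DVL3, PPP2R5E, FBXW11, MACF1, CDH2, PRICKLE1, DAAM1, RHOA, TNFRSF19 and TCF4 (adjusted p of 0.0525 to 0.113). In the same way WNT5A and MACF1 lost their calls with miR-27a (0.065 and 0.085). AXIN2 and SIAH1 gained calls as higher with miR-27a (0.024 and 0.042), and PPP2R1A and RUVBL2 as lower (0.040 and 0.019). The replicate block gave AXIN2, SIAH1 and PPP2R1A calls with miR-27a too (adjusted p = 0.011, 0.0015 and 0.0065), and SIAH1 one with miR-23b (0.029). Of the 88 genes 15 rose in both pull-downs (against 9.12% of all probes), 0 fell in both (9.56% of all probes), 0 passed in opposite directions (0.325% of all probes) and 61 passed in neither (69.3%, against 60.4% of all probes).

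**Figure D3:**
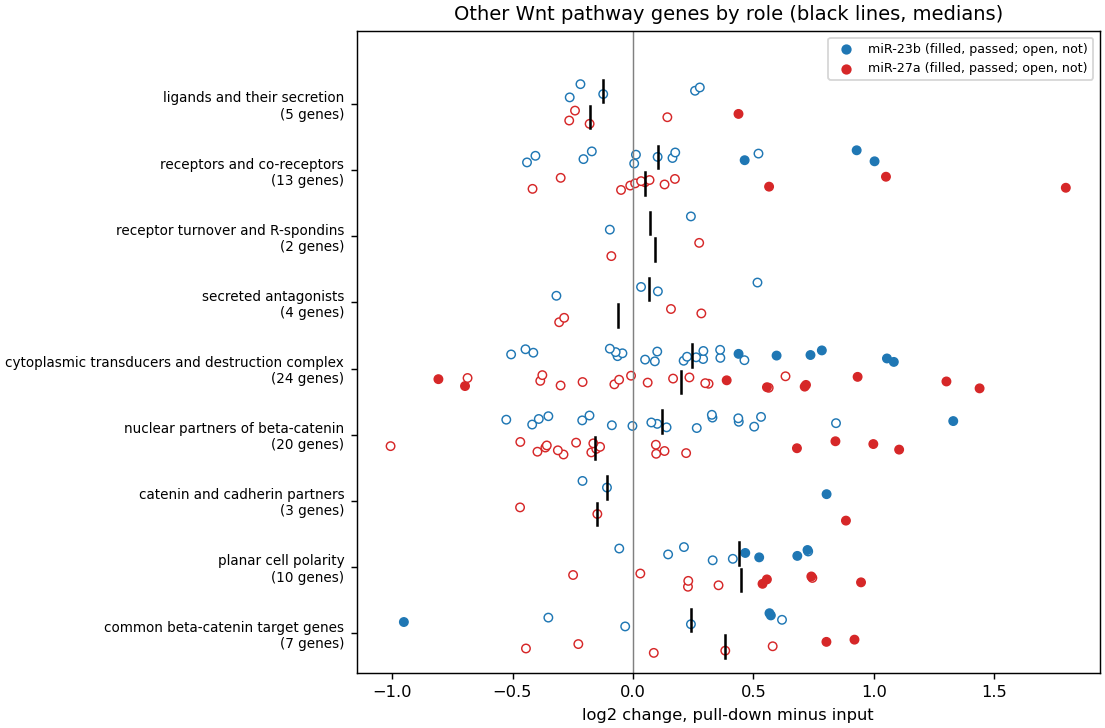
Log2 change, pull-down minus input (horizontal axis), of the 88 measured genes of the wider Wnt list, by role (vertical axis, with the number of genes), with miR-23b in blue and miR-27a in red. Each point is a gene, filled where it passed at an adjusted p under 0.05, and black lines are the medians of a role. Filled points lie mostly on the right, among receptors, cytoplasmic and nuclear components and planar cell polarity genes. None is found among the 4 secreted antagonists, too few to be set against the 24.3% and 34.3% of all probes that passed.

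Ligands and antagonists were scarce in the table. Of 21 genes for Wnt ligands and their secretion 5 were measured, and WNT5A, a ligand known mainly for signalling without beta-catenin, rose with miR-27a (0.44 ± 0.14, adjusted p = 0.046), a call that was lost without any array of the miR-27a comparison (adjusted p up to 0.20), without either input of miR-23b (0.065) and after quantile normalization (0.053). With miR-23b WNT5A changed by 0.28 ± 0.14 (adjusted p = 0.20). The share of the 5 genes that passed was 0.0% with miR-23b and 20.0% with miR-27a, against 24.3% and 34.3% of all probes. Of 4 measured antagonists (DKK1, DKK3, SFRP1 and KREMEN1) and of 2 genes of receptor turnover and R-spondins (ZNRF3 and RSPO2), 0 passed in limma in either pull-down at an adjusted p under 0.05. Of all probes 24.3% and 34.3% passed, and these genes are too few to be set against that. Among them 1 had an unadjusted p under 0.05 (5498 of all 14479 probes with miR-23b and 6532 with miR-27a). This was SFRP1, a Wnt-binding protein gene, with miR-23b (0.52 ± 0.18, adjusted p = 0.068), which passed with the replicate block (0.011) or on omission of the second pull-down of miR-23b (0.043).

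Among 13 receptors and co-receptors 3 rose with each miRNA, and they were the same genes, FZD3, FZD4 and RYK (23.1% with each, against 12.0% and 17.1% of all probes higher and 24.3% and 34.3% passed in either direction). FZD3, a Frizzled receptor with known roles in axon guidance, had values of 9.35 and 8.92 in the inputs of miR-23b and 10.30 and 9.98 in the pull-downs, and 9.36 and 9.02 in the inputs of miR-27a and 11.32 and 10.65 in the pull-downs. It rose by 1.00 ± 0.26 with miR-23b, an apparent 2.0-fold, and by 1.80 ± 0.26 with miR-27a, an apparent 3.48-fold (adjusted p = 0.028 and 0.0024). Both pull-downs of each miRNA lay above all inputs, and those of miR-27a above those of miR-23b. The difference of -0.79 ± 0.37 did not pass (adjusted p = 0.57, and 0.038 with the replicate block). RYK, a Wnt receptor of the receptor tyrosine kinase family, rose by 0.93 ± 0.22 and 1.05 ± 0.22 (adjusted p = 0.020 and 0.0087). Its other 2 probes, with changes of 0.38 to 0.55, did not pass. With miR-23b the calls of both genes were lost when its first pull-down (adjusted p = 0.11 for FZD3 and 0.088 for RYK) or its second input (0.15 and 0.11) was omitted, and that of FZD3 also when its second pull-down was (0.052). With miR-27a FZD3 kept its call without any single array, and RYK lost it on omission of the first pull-down (0.057) or the second input (0.054) of miR-27a. FZD4, the receptor for norrin as well as Wnt ligands, rose by 0.46 ± 0.13 and 0.57 ± 0.13, and its calls were lost on omission of any of the 8 arrays with miR-23b (adjusted p up to 0.20) and of the first pull-down or either input of miR-27a with miR-27a (up to 0.084).

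The cytoplasmic components, which include the partners of AXIN1 and GSK3B, were the best represented, with 24 of 29 measured. Of these 6 rose with miR-23b (6 of 24 called, against 24.3% of all probes), and 7 rose and 2 fell with miR-27a (37.5% called, against 34.3% of all probes). AMER1, which binds APC and beta-catenin at the membrane, had values of 9.17 and 9.03 in the inputs of miR-23b against 10.09 and 10.28 in the pull-downs, and 8.98 and 9.10 in the inputs of miR-27a against 10.32 and 10.64. Its pull-downs lay well apart from its inputs. It rose by 1.08 ± 0.16 and 1.44 ± 0.16 (adjusted p = 0.0045 and 0.0012), and both calls were kept without any single array. CSNK1G1, a casein kinase of the membrane-bound gamma group, rose by 1.05 ± 0.18 with miR-23b, a call kept without any single array, and by 0.72 ± 0.18 with miR-27a, a call lost without either pull-down of miR-27a (adjusted p = 0.076 and 0.075) or its input replicate 1 (0.11). FBXW11, a paralogue of the ubiquitin ligase receptor BTRC that recognises phosphorylated beta-catenin, rose by 0.74 ± 0.18 and 1.30 ± 0.18. Its call with miR-23b was lost when the first pull-down (0.099) or the second input (0.13) of miR-23b was omitted. BTRC itself rose with miR-27a (0.56 ± 0.12, adjusted p = 0.011, lost on omission of any of the 4 miR-27a arrays with adjusted p up to 0.059) and changed by 0.21 ± 0.12 with miR-23b (adjusted p = 0.25).

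The 2 genes of this role that fell did so with miR-27a. NKD2, which binds Dishevelled and antagonises signalling, had values of 10.38 and 10.35 in the inputs and 9.50 and 9.62 in the pull-downs of miR-27a, and fell by 0.81 on the log2 scale (adjusted p = 0.0050). With miR-23b its change was -0.41 ± 0.14 (adjusted p = 0.073, and 0.023 with the replicate block). CSNK1D, a casein kinase that can phosphorylate Dishevelled, had 10.92 and 10.91 in the inputs and 10.32 and 10.11 in the pull-downs of miR-27a and fell by 0.70 (adjusted p = 0.0083), which was lost without pull-down replicate 2 of miR-27a (-0.59, adjusted p = 0.060). Its change with miR-23b was 0.05 ± 0.14, and the difference of 0.75 ± 0.20 did not pass (adjusted p = 0.24). DVL3, the paralogue of DVL2, rose with miR-23b (0.60 ± 0.15, adjusted p = 0.027, and up to 0.12 on omission of either input or the first pull-down of miR-23b) and changed by -0.21 ± 0.15 with miR-27a (difference 0.81 ± 0.22, adjusted p = 0.24). DVL3 and DVL2 thus had changes of the same signs with each miRNA.

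**Figure D4:**
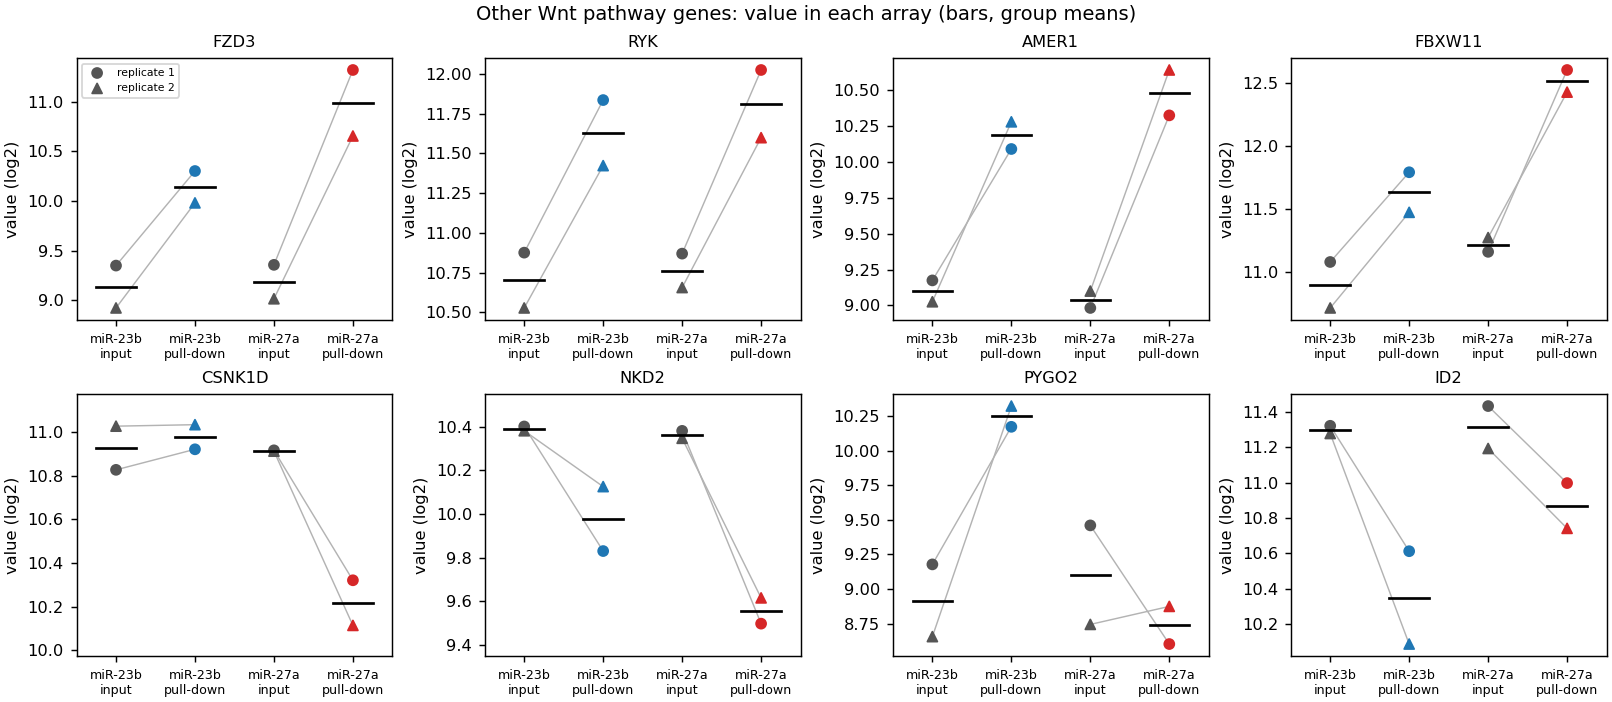
Value of 8 genes of the wider Wnt list in each array (vertical axis, deposited log2 intensity, with its own range in each panel; horizontal axis, the 4 groups). Circles are replicate 1, triangles replicate 2, grey lines join the pull-down and the input of the same miRNA and replicate number, and bars are group means; FZD3, RYK, AMER1 and FBXW11 lie higher in the pull-downs of both miRNAs, CSNK1D lies lower in those of miR-27a alone, and PYGO2 higher in those of miR-23b alone.

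Among 20 nuclear partners of beta-catenin, the group to which TCF7L2 belongs, 1 rose with miR-23b, 4 rose with miR-27a and 0 fell in limma with either at an adjusted p under 0.05 (0 and 3 were lower at an unadjusted p under 0.05). The shares called were 5.0% and 20.0%, against 24.3% and 34.3% of all probes. The 3 lower with miR-27a were RUVBL2 (-1.01 ± 0.35, adjusted p = 0.056), TLE3 (-0.47 ± 0.16, 0.057) and CTBP1 (-0.40 ± 0.16, 0.098). The other probes of CTBP1 differed from each other. ILMN_2278235 changed by -0.60 with miR-23b and -0.62 with miR-27a (adjusted p = 0.074 and 0.054), and ILMN_2379734 by 0.003 and -0.31 (0.99 and 0.25). With the replicate block RUVBL2, TLE3 and the brightest probe of CTBP1 passed with miR-27a (adjusted p = 0.0015, 0.0079 and 0.025). RUVBL2 passed with miR-23b as well (0.041). The block also gave calls as lower to SMARCA4 with both miRNAs (0.024 and 0.029) and to CTNNBIP1 with miR-27a (0.040). With miR-23b it gave calls as lower to TLE2 (0.030) and as higher to TLE1 (0.00795), CHD8 (0.033) and TBL1X (0.019). PYGO2, which links beta-catenin through BCL9 to methylated histones, had values of 9.18 and 8.66 in the inputs of miR-23b and 10.17 and 10.32 in the pull-downs. In the miR-27a arrays its inputs had 9.46 and 8.74 and its pull-downs 8.60 and 8.87, and these overlapped. Its rise of 1.33 ± 0.26 with miR-23b was the largest of the 88 genes in that comparison (adjusted p = 0.011), and was lost when the second input (1.07, adjusted p = 0.068) or the second pull-down (1.26, adjusted p = 0.0502) of miR-23b was omitted. Its change with miR-27a was -0.36 ± 0.26, and the difference of 1.69 ± 0.37 did not pass (adjusted p = 0.14, and 0.020 with the replicate block). With miR-27a EP300, an acetyltransferase recruited by beta-catenin, rose by 1.11 ± 0.31, and lost its call on omission of the second pull-down (adjusted p = 0.16) or the first input (0.15) of miR-27a. With miR-23b EP300 changed by 0.84 ± 0.31 (adjusted p = 0.088, and 0.00050 with the replicate block). TBL1XR1, a component of co-regulator complexes that binds beta-catenin, rose by 1.00 ± 0.18, a call kept without any single array. PYGO1, the paralogue of PYGO2, and the co-repressor gene TLE4 were the others that rose with miR-27a, by 0.68 ± 0.17 and 0.84 ± 0.14, and the call of PYGO1 was lost on omission of either pull-down or the second input of miR-27a (adjusted p up to 0.09). With miR-23b PYGO1 changed by 0.44 ± 0.17 (adjusted p = 0.093, and 0.027 with the replicate block or 0.046 on omission of the first input of miR-23b). Among the TCF/LEF genes themselves LEF1 was the other 1 measured, with changes of 0.08 ± 0.19 and -0.15 ± 0.19.

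Of 10 planar cell polarity genes, which act in signalling without beta-catenin, the same 4 rose with both miRNAs (40.0% with each, against 12.0% and 17.1% of all probes higher and 24.3% and 34.3% passed in either direction). They were PRICKLE1 (0.68 ± 0.18 and 0.95 ± 0.18), ROCK2 (0.72 ± 0.13 and 0.74 ± 0.13), DAAM1 (0.52 ± 0.13 and 0.54 ± 0.13) and RHOA (0.47 ± 0.14 and 0.56 ± 0.14), where ROCK2 is a kinase activated by the GTPase RHOA and DAAM1 a formin that binds Dishevelled. VANGL2, CELSR2, CELSR3, PRICKLE2, SCRIB and ROCK1 did not pass in either pull-down. Of these ROCK1 changed by 0.73 ± 0.27 and 0.75 ± 0.27 (adjusted p = 0.085 and 0.064, and 0.0055 and 0.0037 with the replicate block). The calls of PRICKLE1 and ROCK2 with miR-27a were kept without any single array. The call of RHOA with miR-23b was lost on omission of any of the 8 arrays. Those of DAAM1 with miR-23b and of RHOA with miR-27a were lost on omission of any array of the comparison. That of DAAM1 with miR-27a was lost on omission of either input or the second pull-down of miR-27a. With miR-23b ROCK2 lost its call without input replicate 2 (adjusted p = 0.057), and PRICKLE1 without either input (0.13 and 0.083) or pull-down replicate 2 (0.13). CDH2, which encodes N-cadherin, a partner of beta-catenin at junctions, rose by 0.80 ± 0.24 and 0.88 ± 0.24 (adjusted p = 0.046 and 0.025). Its call with miR-23b was lost on omission of any of 7 arrays, the second pull-down of miR-23b being the exception (adjusted p up to 0.21), and that with miR-27a on omission of the first pull-down (0.14) or either input (0.065 and 0.11) of miR-27a.

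Of 7 measured genes known as targets of beta-catenin, 2 rose with both miRNAs, namely TNFRSF19, a receptor of the TNF receptor family (0.57 ± 0.15 and 0.92 ± 0.15), and TCF4, an E protein also called ITF2 and distinct from TCF7L2 (0.57 ± 0.15 and 0.80 ± 0.15). These were 28.6% of the 7 genes with each miRNA, against 12.0% and 17.1% of all probes higher. Their calls with miR-27a were kept without any single array, and with miR-23b omission of any of 5 and of any of 3 arrays ended them (highest adjusted p 0.13 and 0.14). ID2, an inhibitor of E proteins, fell by 0.95 with miR-23b, from 11.32 and 11.28 in the inputs to 10.61 and 10.09 in the pull-downs (adjusted p = 0.013), and lost its call without either input (0.055 and 0.062) or pull-down replicate 2 (0.056, with a change of -0.69) of miR-23b. With miR-27a its change was -0.44 ± 0.20 (adjusted p = 0.12, and 0.019 with the replicate block). MYC (-0.35 ± 0.18 and -0.23 ± 0.18), CCND1 (0.24 ± 0.16 and 0.38 ± 0.16), BIRC5 (-0.03 ± 0.13 and 0.09 ± 0.13) and JUN (0.62 ± 0.29 and 0.58 ± 0.29) did not pass in either pull-down. With the replicate block JUN passed with both miRNAs (adjusted p = 0.0085 and 0.0092) and CCND1 with miR-27a (0.045), and JUN also passed with miR-23b on omission of the first pull-down of miR-23b (0.033).

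For the difference between the miRNAs 0 of the 88 genes passed in limma (0.477% of all probes), and 7 had an unadjusted p under 0.05 (1358 of all 14479 probes). With the replicate block 2 passed, FZD3 lower and PYGO2 higher with miR-23b (4.24% of all probes, 2.87% higher and 1.37% lower). For the inputs 0 of the 88 genes passed and 2 had an unadjusted p under 0.05 (76 of all 14479 probes).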

How the data were processed

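RNA of 8 samples had been hybridised to Illumina bead arrays in 1 colour. The values deposited by the authors were on a log2 scale, and the submitters' processing notes name lumi 2.2.1. How they were transformed and normalized, and on what basis probes were retained, is not given in the sources used here. A variance-stabilized scale would understate the change of dim probes. The medians of the arrays were 9.09 to 9.12. A table with 16 columns of non-normalized signals and detection p-values was used in no step, because its column names match no sample, and the distance of a probe from background is therefore unknown. Probes were named from the platform annotation, which gave 12008 of 14479 probes 1 gene, 2 probes several and 2469 no gene. Symbols were looked up by Entrez identifier in the RefSeq table of GRCh38.p14.

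All 8 arrays entered a linear model of 4 group means, fitted with limma 3.58.1 in R 4.3.3 (4 residual degrees of freedom, empirical Bayes moderation), and p-values, two-sided, underwent Benjamini-Hochberg adjustment across the 14479 probes, with a threshold of 0.05. Errors of changes are moderated SE. The fit was tested on simulated data. The difference between replicates 2 and 1 correlated across probes at 0.34 to 0.80 in 6 of 6 pairs of groups, all over 0.1. The labels do not state a pairing, and the main fit treats the arrays of a group as unpaired. The results are from the fit without a block, and a fit that blocks on the replicate number was run besides. It is quoted by gene where it alters a call of a pathway probe or of the brightest probe of a named wider-list gene. Other genes of the wider list whose calls it altered enter the counts alone. The other alternatives were leaving out each array, quantile normalization, median scaling, dropping the dimmest 25% of probes, fitting only the 4 arrays of a comparison, a mean-variance trend, and averaging the probes of a gene.

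The pathway genes and the lists were chosen with earlier results of these data known. Every probe of the 10 genes is named. From the wider list genes past the threshold in each pull-down are described. In each role these are up to 2 with the largest rise and up to 2 with the largest fall. Every gene past the threshold for the difference is described too. Genes named beyond this rule (SFRP1, FZD4, BTRC, DVL3, PYGO1, TLE4, DAAM1, RHOA, LEF1, MYC, CCND1, BIRC5, JUN, CSNK1A1, PPP2R5E, MACF1, AXIN2, SIAH1, PPP2R1A, RUVBL2, TLE3, CTBP1, SMARCA4, CTNNBIP1, TLE1, TLE2, CHD8, TBL1X, VANGL2, CELSR2, CELSR3, PRICKLE2, SCRIB and ROCK1) were picked after their values were seen. The likeness search was planned for APC too, which had no named probe. Of 7 genes known from HEK293 lines 4 had a named probe. Input values were 11.67 to 11.97 for LIN28B and 8.90 to 9.54 over NEFL, NEFM and INA. Of 14 markers of fibroblasts, blood and hepatocytes 3 had one (COL1A1, CD14 and ALB, 1 for each cell type), with input values of 7.50 to 8.57.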

Additional observations from a re-analysis of the deposited data

How the results depend on the processing

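With only 2 arrays a group, the number of arrays limits the precision. Of the 7 pathway probes, with miR-23b 2 passed in the main analysis and 0 to 2 without a single array, and with miR-27a 1 passed, 1 to 2 without a single array and 4 with the replicate block, where TCF7L2 and GSK3B were higher and AXIN1 and DVL2 lower. For the wider list 18 genes passed with miR-23b, 37 with the replicate block, 7 with only the 4 arrays of the comparison and 2 to 14 without a single array, and 24 passed with miR-27a, 42 with the replicate block and 14 to 26 without a single array. For the difference 0 passed, and 2 with the replicate block. Over all 14479 probes the counts were 3513 with miR-23b and 4968 with miR-27a in the main analysis. They were 6389 and 7632 with the replicate block, and 2117 and 5072 with only the 4 arrays of the comparison. Quantile normalization, median scaling, dropping the dimmest probes and the mean-variance trend left the counts of both lists within 1.5 times in every comparison. The replicate block changed no call of a pathway probe, or of the brightest probe of a named wider-list gene, other than those given beside the results. Some changes that did not pass took the opposite sign when a single array was left out. For CTNNB1 they ranged from -0.37 to 0.39 (ILMN_1746396) and -0.32 to 0.61 (ILMN_1757350) with miR-23b, from -0.41 to 0.54 and -0.10 to 0.77 with miR-27a, and from -0.53 to 0.42 and -0.65 to 0.28 for the difference. For LRP5 they ranged from -0.10 to 0.49 with miR-23b, from -0.034 to 0.25 with miR-27a and from -0.21 to 0.38 for the difference. The difference ranged from -0.058 to 0.34 for AXIN1 and from -0.28 to 0.067 for GSK3B, and the change of CSNK1D with miR-23b from -0.050 to 0.15. The cause was not tested.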

Other observations

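Of the 88 measured genes of the wider list 27 had several probes, and in 0 of these did 1 probe pass as higher and another as lower in the same pull-down. With miR-23b 4 genes (DAAM1, FBXW11, ROCK2 and RYK) had some probes that passed and some that did not, and with miR-27a 2 had (CSNK1A1 and RYK). The second probe of AMER1 rose by 0.63 with miR-23b and 0.70 with miR-27a, against 1.08 and 1.44 with the brighter probe. Both probes of CSNK1D fell with miR-27a, by 0.70 and 0.66, and had changes of 0.05 and 0.09 with miR-23b. The second probe of FBXW11 rose by 1.36 with miR-27a (adjusted p = 0.0046 in limma), as did that of TLE4, the co-repressor gene, by 0.62 (adjusted p = 0.046). Probes of a gene were measured on the same arrays and are not independent replicates. CSNK1A1, the casein kinase that primes beta-catenin for phosphorylation by GSK3, rose with 2 of its 3 probes with miR-27a (0.71 and 0.50), and the remaining probe changed by 0.16. The other cytoplasmic genes that rose with both miRNAs were PPP2R5E, a regulatory subunit of protein phosphatase 2A (0.78 ± 0.23 and 0.93 ± 0.23), and MACF1, a cytoskeletal linker that binds axin (0.44 ± 0.13 and 0.39 ± 0.13). Omission of single arrays ended the calls of MACF1 with any of the 8 arrays (adjusted p up to 0.16 and 0.20), those of PPP2R5E with 5 and 2 of the 8 (up to 0.21 and 0.11), and that of CSNK1A1 with miR-27a with 2 of the 8 (up to 0.17).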
